A study of Mus musculus with 6 samples.

Results

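Tmem86a, Epdr1, Usp43, Rasal1 and Igdcc4 are 5 genes whose transcripts were higher in every liver labelled AAV8-TBG-Cre than in every liver labelled AAV8-TBG-GFP. They were chosen by their names, and the names were picked from this same comparison for that lack of overlap, so their difference between the groups is described here without a test. They are 5 of 18453 genes with at least 1 count and 5 of 13431 genes that passed the filter on low counts. In all, 1882 genes, 14.0% of those tested, lay higher in every Cre library than in every GFP library. The 5 are thus examples from a much larger set, and nothing is read from their separation as such.

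The 6 mice were Mettl14f/f males on a C57BL/6J background. They were fed a high fat diet (HFD) from 8 weeks of age and injected after 10 weeks of HFD, and livers were taken 8 weeks after injection. Both groups carried the floxed alleles and received an adeno-associated virus of serotype AAV8. In 3 mice the vector encoded Cre recombinase (genotype label METTL14 KO) and in 3 it encoded GFP (genotype label WT). The thyroxine-binding globulin (TBG) promoter of the vector is active in hepatocytes, so the floxed alleles of other liver cells were not its target. METTL14 is the partner of METTL3 in the complex that writes N6-methyladenosine (m6A) on mRNA, and the comparison asks how liver transcripts differ after its deletion in adult hepatocytes.

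The products of the 5 genes work in different places. TMEM86A is a membrane protein related to TMEM86B, a lysoplasmalogenase that cleaves the vinyl ether bond of lysoplasmalogens, ether lipids that have lost an acyl chain. EPDR1 is a secreted and lysosomal glycoprotein of the ependymin family with a fold that binds lipids. USP43 belongs to the ubiquitin-specific proteases, which remove ubiquitin from proteins. RASAL1 is a GTPase-activating protein that responds to calcium and turns off Ras. IGDCC4, also called NOPE, is an immunoglobulin superfamily receptor of the DCC and neogenin family and is known as a surface protein of fetal liver cells and hepatic progenitors. None of the 5 is a classical marker of the mature hepatocyte.

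The positions of the genes are given on GRCm38.p6, whose primary chromosomes are those of mm10, the build named for these files. Tmem86a (gene 67893) lies at chr7:47050640-47054776, Epdr1 (gene 105298) at chr13:19591708-19619830, Usp43 (gene 216835) at chr11:67854523-67922153, Rasal1 (gene 19415) at chr5:120648040-120679597 and Igdcc4 (gene 56741) at chr9:65101023-65137947. No pair of them shares a chromosome. The 250 bases before the transcription start are shown for Tmem86a (chr7:47050390-47050639, plus strand), Epdr1 (chr13:19619831-19620080, minus strand) and Igdcc4 (chr9:65101236-65101485, plus strand). These are the 3 of 5 genes matched in the RefSeq promoter table of GRCm38.p6. They are shown because each of the 5 genes was chosen singly for the same direction of difference between the groups. Each runs 5′ to 3′, and capitals mark matches to the motifs described after them.
Tmem86a: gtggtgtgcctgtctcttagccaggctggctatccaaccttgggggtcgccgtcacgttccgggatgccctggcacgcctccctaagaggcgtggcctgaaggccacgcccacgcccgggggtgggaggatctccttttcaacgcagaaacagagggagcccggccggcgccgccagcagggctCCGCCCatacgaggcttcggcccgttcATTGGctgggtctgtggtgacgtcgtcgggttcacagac
Epdr1: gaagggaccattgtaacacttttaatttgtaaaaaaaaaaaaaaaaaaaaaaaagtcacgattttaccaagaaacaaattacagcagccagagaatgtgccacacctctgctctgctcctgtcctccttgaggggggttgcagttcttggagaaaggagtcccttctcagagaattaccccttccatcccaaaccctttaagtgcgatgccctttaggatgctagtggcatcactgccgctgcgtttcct
Igdcc4: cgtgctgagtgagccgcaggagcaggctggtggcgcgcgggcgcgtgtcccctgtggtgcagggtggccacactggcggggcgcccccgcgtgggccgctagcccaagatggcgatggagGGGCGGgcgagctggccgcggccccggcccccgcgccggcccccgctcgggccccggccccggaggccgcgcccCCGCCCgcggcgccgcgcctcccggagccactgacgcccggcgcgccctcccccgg

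Both strands were searched for the GC box (GGGCGG), the CCAAT box (CCAAT), the TATA box (TATAAA), the E-box (CACGTG) and the AP-1 site (TGANTCA). The Tmem86a promoter held a GC box starting at base -66 and a CCAAT box starting at base -39, both read on the opposite strand. The Igdcc4 promoter held a pair of GC boxes, starting at bases -130 and -56, and the Epdr1 promoter held no match to the 5 motifs. No matches overlapped. Among 32851 promoters of the same length, 32.7% held the GC box, 33.9% the CCAAT box, 12.4% the TATA box, 6.02% the E-box and 6.75% the AP-1 site, so the motifs found are common ones.

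The 3 promoters differed in base composition. Igdcc4 was 84.0% G and C, Tmem86a 66.8% and Epdr1 44.0%, beside a median of 52.4% over all promoters. The ratio of observed to expected CpG was 0.885 for Igdcc4, 0.754 for Tmem86a and 0.335 for Epdr1, beside a median of 0.374. The Epdr1 promoter thus stood below the middle of all promoters on both measures and the other two above it. The start that the promoter table uses for Igdcc4 lies inside the annotated gene. Usp43 and Rasal1 were not matched in the table.

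The RNA of the targeted gene gave no clear check of the labels. Mettl14 had 124, 126 and 111 counts in the GFP libraries and 104, 131 and 101 in the Cre libraries. Its level was 6.18 ± 0.326 CPM (SD, n = 3) in GFP and 5.07 ± 0.275 CPM (SD, n = 3) in Cre, where CPM is the count scaled to a common library size by TMM. The log2 fold change was -0.29 ± 0.15 (SE), with an adjusted p of 0.337 by the quasi-likelihood test of edgeR with Benjamini-Hochberg adjustment. The Cre libraries are therefore called by their label only. By other measures, at an earlier time after injection, the study reported less METTL14 protein and less total m6A in livers given AAV8-TBG-Cre. The libraries held between 20356440 and 21010508 counts. The first principal component of log2 CPM, with 54.1% of the variance, separated the groups, and Cre replicate 2 lay farthest out on it.

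Tmem86a was the best measured of the 5, with 196, 162 and 158 counts in the GFP libraries and 451, 547 and 464 in the Cre libraries. In CPM these were 9.96, 8.26 and 8.27 against 21.5, 22.5 and 22.3. The GFP libraries sat close together, the Cre libraries closer still, and the groups did not overlap. The mean was 8.83 ± 0.978 CPM (SD, n = 3) in GFP and 22.1 ± 0.512 CPM (SD, n = 3) in Cre, a ratio of 2.50. On the log2 scale the fold change was 1.32 ± 0.12 (SE), the smallest of the 5. For each of the 5 genes the SE comes from the libraries that chose it. A choice by lack of overlap favours a small spread, so these SEs can be too small and serve no test.

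The narrow spread of Tmem86a among the Cre libraries depended on the scaling. The coefficient of variation (CV, the SD as a percent of the mean) was 2.31% after TMM scaling, 3.13% after RLE scaling and 4.19% after upper quartile scaling. With library size alone it was 10.9%, and in the deposited FPKM it was 10.9% as well. TMM gave Cre replicate 2 an effective library size of 1.18 times its total, against 0.913 to 1.02 times in the other 5 libraries, and this library held the most Tmem86a counts. For the other 4 genes the CV in Cre moved by less than 1.5 times under these scalings.

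Epdr1 was close to absent from the GFP libraries, with 9, 6 and 5 counts, and had 112, 126 and 62 in the Cre libraries. The levels were 0.457, 0.306 and 0.262 CPM in GFP and 5.35, 5.18 and 2.98 CPM in Cre. Cre replicate 3 was the low one, yet it stood 6.52 times above the highest GFP library. The mean was 0.342 ± 0.103 CPM (SD, n = 3) in GFP and 4.50 ± 1.32 CPM (SD, n = 3) in Cre, a ratio of 13.2. The log2 fold change was 3.70 ± 0.37 (SE), the largest of the 5.

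Usp43 was the scarcest, with 2, 4 and 3 counts in GFP and 46, 43 and 33 in Cre. The levels were 0.102, 0.204 and 0.157 CPM against 2.20, 1.77 and 1.59 CPM. Among the 5 genes Usp43 had the largest step between the groups, with the lowest Cre library 7.78 times the highest GFP library. The 9 GFP counts in all have an exact Poisson interval from 4.12 to 17.1, and the 122 Cre counts one from 101 to 146. These 95% intervals cover counting error only. Its log2 fold change was 3.53 ± 0.39 (SE), from means of 0.154 ± 0.0513 and 1.85 ± 0.312 CPM (SD, n = 3 each).

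Rasal1 had 5, 8 and 4 counts in the GFP libraries and 48, 115 and 73 in the Cre libraries. The levels were 0.254, 0.408 and 0.209 CPM against 2.29, 4.72 and 3.51 CPM. Here Cre replicate 1 was the low one and Cre replicate 2 the high one, and the lowest Cre library was 5.61 times the highest GFP library. The mean was 0.291 ± 0.104 CPM (SD, n = 3) in GFP and 3.51 ± 1.22 CPM (SD, n = 3) in Cre, a ratio of 12.1. The log2 fold change was 3.57 ± 0.42 (SE).

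Igdcc4 had 6, 7 and 13 counts in GFP and 66, 199 and 93 in Cre. The levels were 0.305, 0.357 and 0.681 CPM against 3.15, 8.17 and 4.48 CPM. It varied most among the Cre libraries, where the highest library was 2.60 times the lowest, with the same order as for Rasal1. The mean was 0.448 ± 0.204 CPM (SD, n = 3) in GFP and 5.27 ± 2.60 CPM (SD, n = 3) in Cre, a ratio of 11.8. This gave a log2 fold change of 3.55 ± 0.48 (SE). Because Epdr1, Usp43, Rasal1 and Igdcc4 were so low in GFP, they passed the filter on low counts through the Cre libraries.

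**Figure D1:**
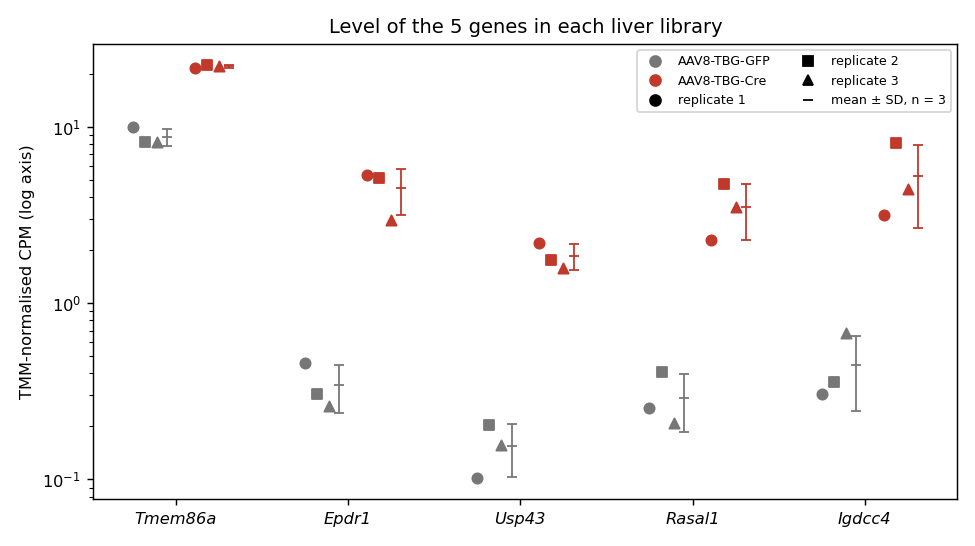
Level of each gene in each library, in TMM-normalised CPM on a log axis, with grey for AAV8-TBG-GFP and red for AAV8-TBG-Cre. Symbols mark the replicates and bars the mean ± SD (n = 3). Tmem86a rises from about its GFP mean of 8.83 to 22.1 CPM with little spread, while the other 4 genes start below 1 CPM in every GFP library.

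Measured per length as FPKM (which divides fragments by transcript length and library depth), Tmem86a was the most abundant of the 5 in both groups, at 4.66 ± 0.626 in GFP and 13.1 ± 1.43 in Cre (SD, n = 3 each). In the Cre libraries Epdr1 followed with 2.00 ± 0.688 FPKM, then Rasal1 with 1.15 ± 0.497, Igdcc4 with 0.910 ± 0.537 and Usp43 with 0.437 ± 0.0777. The step from Tmem86a to Epdr1 was wider than the spread of either. Epdr1 and Rasal1 overlapped across libraries, as did Rasal1 and Igdcc4, so these neighbours in the order were not separated. In the GFP libraries Epdr1, Rasal1, Igdcc4 and Usp43 all lay at or below 0.18 FPKM.

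The size of the step between the groups was taken as the gap, the lowest Cre library minus the highest GFP library in log2 CPM with a prior count of 2. The gap was 2.49 for Usp43, 2.48 for Epdr1, 2.24 for Rasal1, 2.06 for Igdcc4 and 1.10 for Tmem86a. These held ranks 5, 6, 7, 11 and 99 among all genes tested, and the median gap of the separated genes was 0.21. The gap is made from the same library values that chose the 5 genes. Its size and rank therefore describe that choice and add no further result. Genes with a wider gap than Usp43 were Myo7b (3.17), Cldn4 (2.99), Lrtm2 (2.84) and Eln (2.67). At the edge of the rule, Son lay just inside with a gap of 0.00028 and Foxp1 just outside with -0.00014. Foxp1 and Son thus differ by almost nothing. The 5 gaps lay farther from that edge, which describes the genes as they were chosen.

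**Figure D2:**
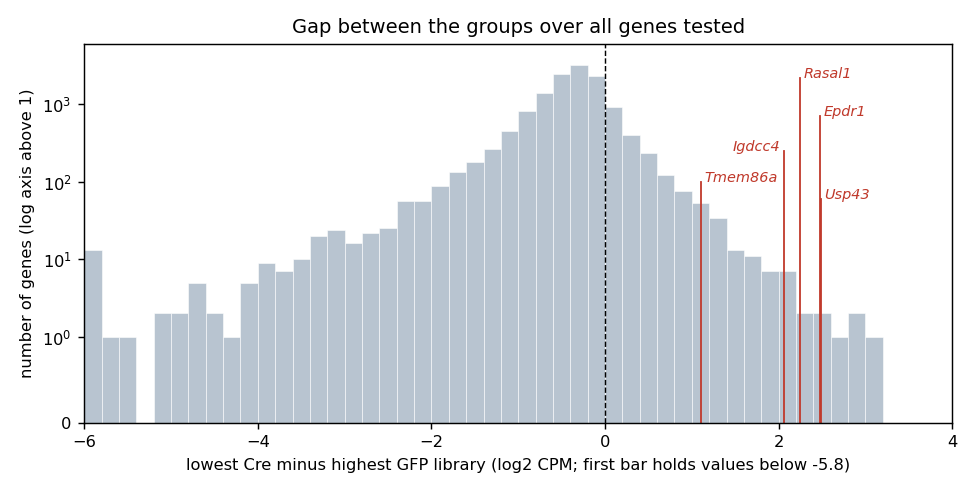
Histogram of the gap (lowest Cre minus highest GFP library, log2 CPM) over the 13431 genes tested, with the number of genes on a log axis, the dashed line at 0 and red lines at the 5 genes. Most genes lie left of 0. The 5 genes lie between 1.10 and 2.49 in the right tail, and their choice alone places them right of 0.

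Transcript assignments differed between libraries for Usp43 and Rasal1. Tmem86a and Epdr1 each had 1 transcript in the files (NM_026436 and NM_134065). The counts of Usp43 went to NM_001291049 in 5 libraries and to NM_173754 in Cre replicate 3. Those of Rasal1 went to NM_001281999 in GFP replicate 1 and Cre replicates 1 and 2, to NM_013832 in GFP replicates 2 and 3, and were split 57.5% to 42.5% in Cre replicate 3. Igdcc4 kept at least 89.4% of its counts on NM_020043 in every library. The switch followed neither group, and sums per gene were used throughout.

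The libraries had short names (GFP replicates 1 and 2, Cre replicate 1) or long names of 4 digits (GFP replicate 3, Cre replicates 2 and 3). The labels do not say what the form stands for. The name form was not used in choosing the genes, and it was tested beside the vector in edgeR over all genes. For the 5 genes this is not an independent check. It reuses the library values that chose them, and a lack of overlap favours a small spread within the groups. None of the 5 genes differed by name form at an adjusted p under 0.05, and 1 of 5, Igdcc4, did at an unadjusted p under 0.05, beside 16.9% of all genes. Its log2 difference was 1.01 ± 0.35 (SE, long minus short names), with an adjusted p of 0.212 by the edgeR quasi-likelihood test. Of all genes tested, 1.39% passed an adjusted p of 0.05 for the name form. The other 4 genes had log2 differences from -0.42 (Epdr1) to 0.45 (Rasal1).

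Within each name form the Cre libraries were higher for all 5 genes, as the lack of overlap requires. The log2 ratio was 1.24 in the short-named libraries and 1.44 in the long-named ones for Tmem86a, 3.81 and 3.96 for Epdr1, and 3.84 and 3.42 for Usp43. It was 2.79 and 4.30 for Rasal1, the widest difference, and 3.25 and 3.22 for Igdcc4. For Rasal1 the 2 strata each rest on 3 libraries, with 1 Cre library against 2 GFP libraries in the first and 2 against 1 in the second.

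The 5 genes did not follow a single order among the Cre libraries. Rasal1 ran from 65.3% of its Cre mean in replicate 1 to 135% in replicate 2, and Igdcc4 from 59.8% to 155% in the same libraries. In TMM-scaled CPM, Epdr1 and Usp43 were both at 119% in replicate 1 and lowest in replicate 3, at 66.3% and 85.9%. Tmem86a stayed between 97.4% and 102%. Over all 6 libraries each pair of genes had a Pearson r of log2 CPM between 0.93 and 0.99, but the points share the difference between groups that chose them. After the group means were removed, r ran from -0.83 (Tmem86a and Usp43) to 0.47 (Tmem86a and Epdr1), with 0.42 for Rasal1 and Igdcc4. These correlations over 6 libraries are descriptions and have no test.

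Marker sums of other liver cells also moved with the groups. Each sum covers all listed markers of a cell type, including those too low to test. The cholangiocyte markers, which belong to the bile duct lining, summed to between 80.5 and 138 CPM in GFP and between 325 and 616 CPM in Cre, and all 11 tested were higher at a 1.2-fold difference with an unadjusted p under 0.05. Spp1 alone made up the largest part of these sums, with means of 66.8 CPM in GFP and 324 CPM in Cre. In the GFP libraries the defining markers Krt19 and Epcam had means of 1.11 and 1.98 CPM, against 6.29 and 12.7 CPM in Cre. By the same call, 12.0% of all genes tested were higher in Cre and 8.41% lower. Of the 11 stellate cell and fibroblast markers, 6 were higher and none lower. Their sum was 265 to 404 CPM in GFP and 516 to 1096 CPM in Cre. Much of that difference came from the collagens Col3a1 (mean 43.2 CPM in GFP, 184 in Cre), Col1a1 (27.6 and 123) and Col1a2 (23.6 and 86.7). The log2 fold change was positive for 8 of the 11 markers and negative for Lrat (-0.252), Reln (-0.105) and Acta2 (-0.371). Of the 11 macrophage and Kupffer cell markers 8 were higher and none lower, with sums of 225 to 256 CPM in GFP and 360 to 589 CPM in Cre. Lyz2 made up the largest part of that difference (mean 43.0 CPM in GFP, 123 in Cre). Clec4f and Timd4 did not pass. The log2 fold change was positive for 10 of the 11 markers and negative for Marco (-0.749).

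Cre replicate 2 had the highest sum of all 3 lists, at 140%, 152% and 135% of the Cre mean for cholangiocytes, stellate cells and macrophages. It also had the highest Rasal1, Igdcc4 and, by a small margin, Tmem86a. Usp43 was highest in Cre replicate 1, as was Epdr1 after TMM scaling, but by count (126 against 112) and FPKM (2.52 against 2.26) Epdr1 was highest in Cre replicate 2. The part of these cells in the levels of the 5 genes was not tested. Without Cre replicate 2 the log2 fold change was 3.29 for Rasal1 and 3.07 for Igdcc4. In whole liver, a change in the number of cells of a type and a change in RNA per cell cannot be told apart.

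The 12 hepatocyte markers, among them albumin and transthyretin, summed to 107318 to 126530 CPM in GFP and 92288 to 114756 CPM in Cre, with 1 higher and 1 lower, so both groups were hepatocyte-rich. The same unadjusted call took 12.0% of all genes as higher and 8.41% as lower. Of 10 endothelial markers none was higher and 1 lower (215 to 355 CPM against 232 to 271 CPM). Of 4 T, NK and B cell markers tested 2 were higher and 1 lower, and of 5 neutrophil markers tested 3 were higher and 1 lower. Over all listed genes the sums were 4.45 to 5.92 CPM in GFP and 4.96 to 9.53 CPM in Cre for the first list, and 15.0 to 16.9 CPM and 19.8 to 22.1 CPM for the second. Of 5 adipocyte markers tested 2 were lower and none higher. The sum over all listed adipocyte genes was 76.4 to 100 CPM in GFP and 20.7 to 55.1 CPM in Cre, with no overlap between the groups. That fall came from Cidec (mean 47.2 CPM in GFP, 21.0 in Cre), Cfd (18.1 and 0.669) and Cidea (8.97 and 0.431). The means of Adipoq, Plin1, Lep, Retn and Fabp4 did not fall, so the markers of this list did not move together.

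**Figure D3:**
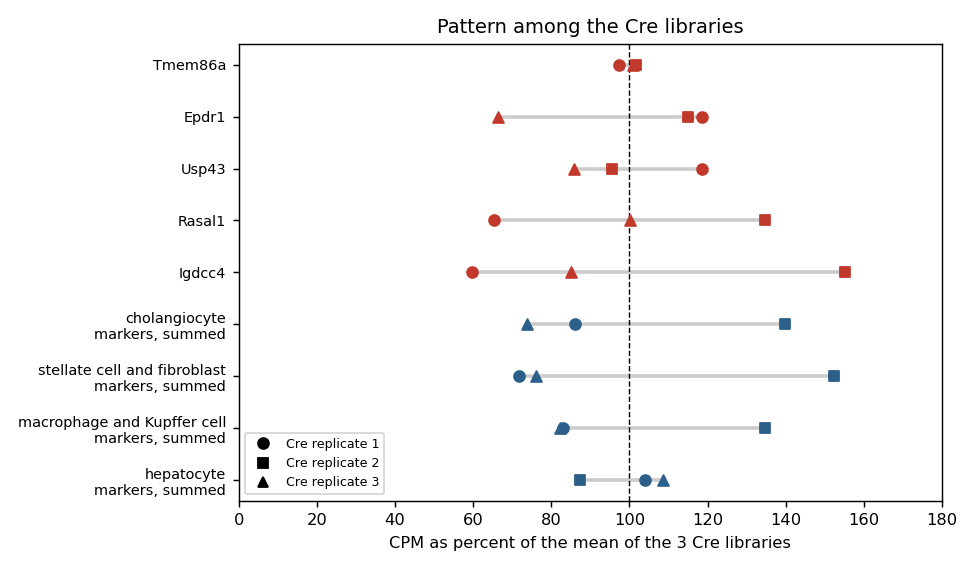
Level in each of the 3 Cre libraries as a percent of their mean, in TMM-scaled CPM, for the 5 genes (red) and 4 summed marker lists (blue). Symbols mark replicates. Replicate 2 is the highest for Rasal1, Igdcc4 and the 3 lists of non-hepatocyte markers, replicate 1 is the highest for Epdr1 and Usp43, and Tmem86a stays near 100%.

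Relatives of the 5 genes were drawn from 7 lists of 138 distinct genes without the 5 themselves, of which 122 were tested. At a 1.2-fold difference with an unadjusted p under 0.05, 11 relatives were higher in Cre and 9 lower, beside the 12.0% and 8.41% of all genes. At an adjusted p under 0.05 in edgeR, 3 of 122 passed, beside 0.931% of all genes. They were Chpt1, Pla2g6 and Cd24a. Summed over the lists, the counts by the unadjusted call were near the background.

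Tmem86a was set beside the enzymes of its pathway. Of 15 genes of plasmalogen metabolism, which covers synthesis in peroxisomes and breakdown by phospholipases, 2 were higher and 4 lower, beside 12.0% and 8.41% of all genes. The median log2 fold change was -0.24, beside -0.006 over all genes tested. Chpt1, which makes choline phospholipids, fell from 259 ± 10.3 to 142 ± 16.8 CPM (SD, n = 3 each), a log2 fold change of -0.87 with an edgeR adjusted p of 0.0374. Pla2g6, a calcium-independent phospholipase A2, fell from 83.2 ± 7.16 to 43.2 ± 7.02 CPM (SD, n = 3 each), a log2 fold change of -0.94 with an edgeR adjusted p of 0.0380. Both log2 fold changes were negative in every setting tried, but the adjusted p stayed under 0.05 in only 7 of 16 alternatives for Chpt1 and 6 of 16 for Pla2g6.

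Tmem189, the desaturase that puts the vinyl ether bond into plasmalogens, was lower by the unadjusted call, with a log2 fold change of -0.73 (edgeR adjusted p = 0.0677), and so was Pex7, the peroxisomal import receptor for a plasmalogen enzyme, with -0.36 (edgeR adjusted p = 0.202). Higher by that call were Pla2g4a, the cytosolic phospholipase A2 (log2 fold change 1.57, edgeR adjusted p = 0.0854), and Far1, which supplies fatty alcohols for ether lipids (0.75, edgeR adjusted p = 0.212). The paralog Tmem86b did not pass, with a log2 fold change of -0.24 ± 0.19 (SE, edgeR adjusted p = 0.529). Per length, Tmem86b remained the more abundant of the pair in both groups, at 54.6 ± 5.93 FPKM in GFP and 51.5 ± 11.9 in Cre (SD, n = 3 each), against 4.66 and 13.1 FPKM for Tmem86a.

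Beside Epdr1, 22 genes of lysosomal lipid handling were tested, of which 1 was higher and 3 lower, with a median log2 fold change of -0.05. Among all genes tested, 12.0% were higher and 8.41% lower by the unadjusted call. Npc2, a soluble carrier of cholesterol in the lysosome, was higher (log2 fold change 0.44, edgeR adjusted p = 0.0975). The lysosomal hydrolases Arsa (-0.41) and Smpd1 (-0.30) and the channel Mcoln1 (-0.33) were lower by the unadjusted call, with edgeR adjusted p of 0.218, 0.161 and 0.212. Of 44 genes with a USP symbol tested beside Usp43, none was higher and 1 was lower, Usp40, with a log2 fold change of -0.33 (edgeR adjusted p = 0.152). These were drawn by symbol, so Usp6nl, which is not itself a deubiquitinase, is among them. The median of that list was -0.06.

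Beside Rasal1, 9 Ras GTPase-activating proteins were tested, with 2 higher and none lower and a median log2 fold change of 0.04. Among all genes tested, 12.0% were higher and 8.41% lower by the unadjusted call. Rasa4 was higher by 0.82 (edgeR adjusted p = 0.0948) and the paralog Rasal3 by 1.24 (edgeR adjusted p = 0.165), which went from 0.719 ± 0.281 to 1.70 ± 0.715 CPM (SD, n = 3 each). Rasal3 is known from blood cells. The paralog Rasal2 did not pass, with a log2 fold change of -0.17 ± 0.19 (SE, edgeR adjusted p = 0.639). Of 16 Ras proteins, exchange factors and regulators, Spred1, an inhibitor of the Ras pathway, was higher (0.31, edgeR adjusted p = 0.205) and Rasgrp2, an exchange factor, was lower (-0.88, edgeR adjusted p = 0.101), with a median of 0.09.

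Beside Igdcc4, 9 genes of the DCC and neogenin family and its ligands were tested. Rgma, a ligand of neogenin, was higher, with a log2 fold change of 0.89 (edgeR adjusted p = 0.158), and none was lower. The unadjusted call took 12.0% of all genes as higher and 8.41% as lower. The median log2 fold change of the 9 genes was 0.14. Neo1 itself did not pass (0.17 ± 0.13, SE, edgeR adjusted p = 0.524), and the closest paralog Igdcc3 had no count in GFP and 0, 2 and 1 counts in Cre, too few to test. Prtg, another receptor of the family, which was named after its values were seen, was also too low to test. It had 2, 0 and 2 counts in GFP and 14, 27 and 10 in Cre, or 0.0688 ± 0.0596 and 0.753 ± 0.322 CPM (SD, n = 3 each), with every Cre library above every GFP library.

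In the fetal liver and hepatic progenitor list, of 7 genes tested beside Igdcc4, 4 were higher and none lower by the unadjusted call. That call took 12.0% of all genes as higher and 8.41% as lower. The median log2 fold change of the list was 2.35, beside -0.006 over all genes. Like the other lists, it was chosen with earlier results of these data known. Cd24a, a surface glycoprotein, rose from 3.84 ± 2.09 to 23.2 ± 11.0 CPM (SD, n = 3 each), a log2 fold change of 2.60 with an edgeR adjusted p of 0.0471, which stayed under 0.05 in only 3 of 16 alternatives. Higher by the unadjusted call were Prom1, a membrane glycoprotein of stem and progenitor cells (2.35, edgeR adjusted p = 0.0587), the proteoglycan Gpc3 (2.94, edgeR adjusted p = 0.0854) and the imprinted RNA H19 (3.43, edgeR adjusted p = 0.124). H19 had 52, 4 and 33 counts in GFP and 609, 455 and 36 in Cre, so the groups overlapped. Gpc3 had 7, 3 and 6 counts in GFP and 18, 104 and 26 in Cre, most of them in Cre replicate 2. It thus passed the filter on low counts through the Cre libraries. Cd24a and Prom1 are also known from bile duct cells, whose markers were higher in the same libraries. Afp, the gene of a fetal serum protein of the albumin family, did not pass (log2 fold change 0.45 ± 0.30, SE, edgeR adjusted p = 0.446). Neither did Igf2 (0.07, edgeR adjusted p = 0.967) nor Igf2bp3 (0.38, edgeR adjusted p = 0.704).

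**Figure D4:**
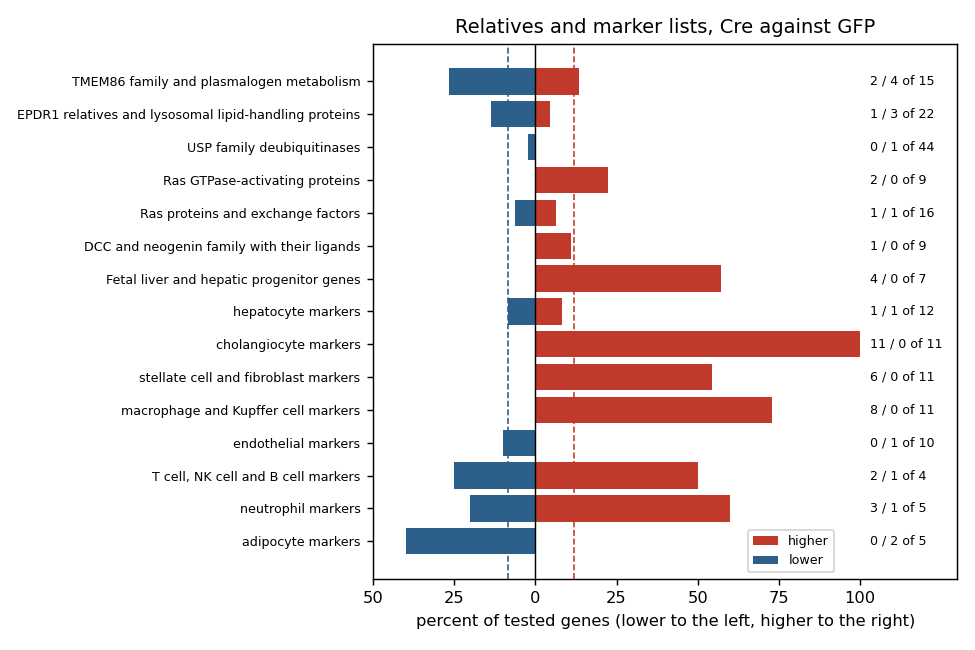
Percent of the tested genes of each list that were higher (red, to the right) or lower (blue, to the left) in Cre at a 1.2-fold difference with an unadjusted p under 0.05, with the numbers higher and lower of the number tested at the right. Dashed lines give the same for all genes (12.0% higher, 8.41% lower). The markers of cholangiocytes, macrophages and neutrophils reach farthest to the right, followed by the fetal liver list and the markers of stellate cells, and the USP list lies below both lines.

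The genes whose log2 CPM was most like each of the 5 over the 6 libraries were taken by Pearson r, as a description in which all points share the group difference. For Tmem86a they were H2-T24 (r = 0.999), Cdh1 (0.997), the adhesion protein E-cadherin, and Rnf145 (0.997), a ubiquitin ligase of the endoplasmic reticulum. For Epdr1 they were Ramp3 (0.992), Myo7b (0.991) and Fam208b (0.990), and for Usp43 Frem2 (0.997), Npm1 (0.992) and Lcor (0.988). Rasal1 was most like Adam33 (0.995), Oas1g (0.993) and Rap1gap2 (0.993). Igdcc4 was most like the protease inhibitor Slpi (0.999), Cnksr1 (0.992) and Atp10a (0.991).

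After removal of the group means the nearest genes were others. They were Slc36a4, Etohd2 and Ap1ar for Tmem86a (r from 0.983 to 0.987), Cnr2, Gstm3 and Hddc2 for Epdr1 (0.997 to 1.000), and Dennd4b, P2rx3 and D16Ertd472e for Usp43 (all 0.996). They were Olfm1, Ust and Zxdb for Rasal1 (0.993 to 0.996) and Hmgn1, Hnrnpr and Nek7 for Igdcc4 (all 0.996). No gene was among the nearest 3 on both measures. Nothing is read from these values about shared function or control.

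Genes next to the 5 on the chromosome were examined after the data had been seen. The nearest gene that passed the filter on low counts was taken on each side, 10 in all, so that genes too low to test were skipped, such as Igdcc3 beside Igdcc4. No gene of the annotation overlapped any of the 5. Dtx1, a Notch pathway ubiquitin ligase whose gene lies 606 bases beyond the end of Rasal1, went from 0.615 to 1.67 CPM, a log2 fold change of 1.44 (edgeR adjusted p = 0.166). Elmo1, 470677 bases from Epdr1, had a log2 fold change of 0.68 (edgeR adjusted p = 0.149). For the other 8 genes the unadjusted p was above 0.05 and the log2 fold change lay between -0.20 (Dpp8, beside Igdcc4) and 0.37 (Gas7, beside Usp43). None of the 10 passed an edgeR adjusted p of 0.05, beside 0.931% of all genes. Dtx1 and Elmo1, 2 of 10, were higher at a 1.2-fold difference with an unadjusted p under 0.05. By that call 12.0% of all genes were higher and 8.41% lower, and nothing is read from so few neighbours.

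m6A was not measured in these libraries, but its sequence context, the DRACH motif, can be counted. In the longest coding transcript of each gene in GENCODE vM1, DRACH occurred 16.8 times per kilobase in Tmem86a, 17.2 in Epdr1, 16.1 in Usp43, 22.8 in Rasal1 and 17.3 in Igdcc4. The median over 11943 tested genes was 20.2. Rasal1 lay above that median and the other 4 below it. A motif match does not say that the site is methylated.

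The fold changes were recomputed under other settings. Under other scalings, other filters, DESeq2 and with covariates the log2 fold change stayed between 3.22 (Igdcc4) and 3.84 (Epdr1) for the 4 scarce genes. Leaving out each library in turn gave 1.27 to 1.41 for Tmem86a, 3.53 to 3.95 for Epdr1, 3.31 to 3.78 for Usp43, 3.29 to 3.89 for Rasal1 and 3.07 to 3.96 for Igdcc4. With limma on log2(FPKM + 1) the values of the scarce genes were much smaller, because a pseudocount of 1 exceeds most of their FPKM. The direction was the same in every setting, as the choice of the genes fixes it.

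**Figure D5:**
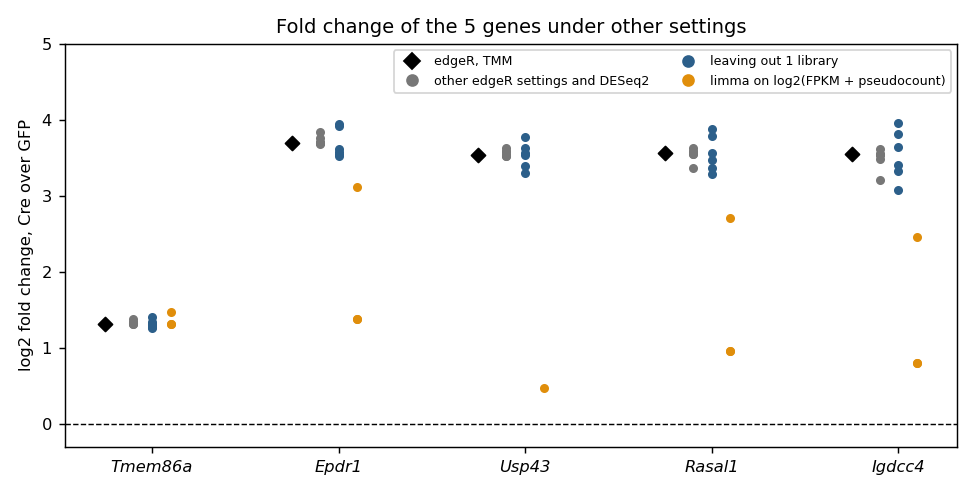
Log2 fold change (Cre over GFP) of the 5 genes in the edgeR fit with TMM scaling (black diamonds) and under other edgeR settings and DESeq2 (grey), leaving out 1 library (blue), and limma on log2(FPKM + pseudocount) (orange). The orange points of the 4 scarce genes lie lower than the rest, down to 0.48 for Usp43, while Tmem86a stays between 1.27 and 1.48 throughout.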

How the data were processed

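Liver RNA-seq of 6 mice, 3 per group, was analysed from tables the authors deposited. Per the labels, the processing used HISAT2, Bowtie2 and RSEM on mm10, while the methods of the study name STAR, HTSeq and DESeq2. For each transcript the authors deposited an expected count, an estimate of fragments that need not be whole. FPKM values per transcript and gene were deposited too, scaled by length and by mapped fragments. Transcripts carry RefSeq identifiers.

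Expected counts were summed by gene ID and rounded. Total counts per library lay between 20356440 and 21010508. All genes were fitted with edgeR 4.0.16 in R 4.3.3 (TMM, filterByExpr, quasi-likelihood test, Benjamini-Hochberg adjustment, vector as the only factor). The SE of a log2 fold change was its absolute value divided by the square root of the F statistic of that test. A gene was called at a 1.2-fold difference with an unadjusted p under 0.05, the threshold of the study, and at an adjusted p under 0.05. No library was left out, and scripts were tested on simulated data. Samples were grouped by vector from the sample titles. Replicates are separate mice, and libraries of a group differed by more than sampling noise (chi-square per gene of at least 24.9). The replicate numbers did not pair the samples.

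The 5 genes, the lists and the tests were chosen with earlier results of these data known. The named relatives are those of each list with an adjusted p under 0.05, otherwise up to 4 with the smallest p among those called, and the closest paralogs. The genes most alike are the 3 with the highest Pearson r. Promoters came from RefSeq (GRCm38.p6), DRACH counts from GENCODE vM1 transcripts, and no coordinates were moved between builds. Alternatives were RLE and upper quartile scaling, no filter or at least 10 counts in every library, DESeq2 1.42.0, the replicate number as a block, the name form as a covariate, limma 3.58.1 on log2(FPKM + 1) or log2(FPKM + 0.1) with an FPKM of at least 0.5 in 3 libraries or no filter, and leaving out each library. Scaling effects on the CV were examined after the data were seen.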

Additional observations from a re-analysis of the deposited data

How the results depend on the processing

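The 5 log2 fold changes kept their direction in every alternative that gave a value. The filter of at least 10 counts in every library left out Epdr1, Usp43, Rasal1 and Igdcc4, and the FPKM filter left out Usp43. With limma on log2(FPKM + 1), with or without the filter, the log2 fold change was 1.38 for Epdr1, 0.97 for Rasal1 and 0.80 for Igdcc4, and without the filter 0.48 for Usp43. With log2(FPKM + 0.1) it was 1.48 for Tmem86a, 3.12 for Epdr1, 2.71 for Rasal1 and 2.46 for Igdcc4. The gap on log2(FPKM + 1) was 0.91 for Epdr1, 0.61 for Rasal1 and 0.46 for Igdcc4. Leaving out each library, it ran from 1.10 to 1.37 for Tmem86a, 2.48 to 3.25 for Epdr1, 2.24 to 2.84 for Rasal1 and 2.06 to 2.84 for Igdcc4.

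Genes lower by the unadjusted call numbered 1129 in edgeR, 737 with upper quartile scaling, 365, 376 and 364 with limma (pseudocount 1, pseudocount 0.1, pseudocount 1 without filter), and 735 to 1712 leaving out each library, with 1712 without Cre replicate 1 and 735 without GFP replicate 1. Relatives lower numbered 9 in edgeR, 4 with upper quartile scaling or any limma setting, and 5 to 12 leaving out each library, with 5 without GFP replicate 1. At an adjusted p under 0.05, 65 genes were higher and 60 lower in edgeR. These became 31 and 35 with upper quartile scaling, 235 and 137 without a filter, 748 and 409 in DESeq2, 10 and 12, 15 and 12, and 5 and 4 in the limma settings. With at least 10 counts in every library 28 were higher, and with the name form as a covariate 120 were lower. Leaving out each library gave 0 to 576 higher and 0 to 352 lower, with 0 and 0 without GFP replicate 2 or Cre replicate 2, 576 and 352 without Cre replicate 1, and 13 or fewer in each direction without any of the other 3. With the replicate number as a block, 1 gene was higher and 6 lower. Same-numbered libraries had correlations of 0.009, -0.263 and 0.209 between their deviations from the group means, so the numbers did not pair the samples. The cause of these shifts was not tested.

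The log2 fold change of Chpt1 ranged from -0.97 to -0.69, that of Pla2g6 from -1.09 to -0.76 and that of Cd24a from 2.14 to 3.13. Their adjusted p stayed under 0.05 in 7, 6 and 3 of 16 alternatives, and in 1 of 6 that left out a library for each. The highest adjusted p was 0.167, 0.150 and 0.189. Depth limits the 4 scarce genes, whose GFP levels rest on 2 to 13 counts per library.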
